A study of Mus musculus with 9 samples.

Results

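Microtubule-associated proteins (MAPs) bind the microtubules that give axons and dendrites their shape and serve as tracks for transport. The messages of 10 such genes were followed by symbol in RNA that co-immunoprecipitated with phosphorylated UPF1 (p-UPF1): Map1a, Map1b, Map1s, Map2, Map4, Map6, Map7d1, Mapt, Dcx and Stmn1. They are 10 of the 54325 gene symbols and 100 of the 140658 transcripts in the deposited table. They were chosen by symbol, and all 100 transcripts were matched to the GENCODE M21 annotation of the mouse genome build GRCm38.

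UPF1 is the RNA helicase at the centre of nonsense-mediated mRNA decay (NMD), a pathway that degrades mRNAs on which translation ends in a context read as premature. UPF1 becomes phosphorylated on such mRNAs, so that RNA held by p-UPF1 is used as a sample of mRNAs undergoing NMD. Known features of NMD targets are an exon junction well downstream of the stop codon and, for some, a long 3' untranslated region (3' UTR). In neurons, MAPs divide the work: tau and MAP1B are typical of axons, MAP2 of dendrites, doublecortin of migrating young neurons, and stathmin loosens microtubules where the other members stabilise them.

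All 9 libraries came from Neuro-2A (N2A) cells, a mouse neuroblastoma line, and every culture had been exposed to the phosphatase inhibitor okadaic acid, at 200 nM for 2 h. The groups were 3 Input libraries of RNA taken without IP, 3 libraries of RNA recovered with control rabbit IgG (rIgG IP) and 3 of RNA pulled down by an anti-p-UPF1 antibody (p-UPF1 IP). No group lacked okadaic acid, and RNA was cut with RNase I and sequenced as short fragments, so that the counts report fragments rather than whole mRNAs. The labels do not say whether same-group libraries came from separate cultures, and p-values then measure only the spread between these libraries.

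Total counts were 25184464 to 29857955 in Input, 5312526 to 6246110 in the p-UPF1 IP and 79010 to 474491 in the rIgG IP. A level of 3 counts corresponds to 0.10 to 0.119 CPM (the standard scaling of counts by library total) in Input, 0.480 to 0.565 CPM in the p-UPF1 IP and 6.32 to 38.0 CPM in the rIgG IP, counting error only. Of 12 neuroblastoma and neuronal markers, 11 had counts in Input, with a summed level of 211 to 238 CPM there and 204 to 229 CPM in the p-UPF1 IP, and the neurofilament gene Nefl was at 0 throughout. The 8 glial and immune markers summed to 1.44 to 2.23 CPM in Input and 9.93 to 13.1 CPM in the p-UPF1 IP, where only 2 of them had a count and Gfap, Aqp4, Sox10, Csf1r, Ptprc and Cx3cr1 were at 0. Their part in the results was not tested.

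The members together took more of the p-UPF1 IP than of either control. Their counts made up 0.145 to 0.168% of the p-UPF1 IP libraries, against 0.0665 to 0.0742% of Input and 0.0653 to 0.0721% of the rIgG IP. Map1b dominated that sum, with 73.3 to 75.3% of the members' counts in Input and 80.7 to 82.7% in the p-UPF1 IP. The share of Stmn1 moved the other way, from 7.48 to 9.67% of the members' counts in Input to 1.57 to 1.65% in the p-UPF1 IP.

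Within Input, levels were compared per length, as CPM (scaled by TMM over all 9 libraries) per kb of each gene's most-counted transcript. Stmn1 stood highest at 65.6 ± 8.54 CPM per kb (SD, n = 3), ahead of Map1b at 53.2 ± 2.37 CPM per kb. A wide gap followed, to Mapt at 7.65 ± 0.21 CPM per kb, Map4 at 5.69 ± 0.15 CPM per kb and Map6 at 4.01 ± 0.06 CPM per kb, and the ranges of these 5 genes did not overlap. Map7d1 (2.80 to 3.31 CPM per kb), Map2 (2.56 to 3.04) and Map1s (2.51 to 3.02) overlapped one another, and Map1a was lowest of the genes tested at 1.88 to 2.19 CPM per kb. In the p-UPF1 IP the order changed. Map1b led at 98.4 ± 4.61 CPM per kb, Stmn1 came next at 21.5 ± 0.68 CPM per kb, and Map2 was last at 1.70 ± 0.24 CPM per kb, while the ranges of Mapt, Map7d1 and Map6 overlapped their neighbours in that order.

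**Figure D1:**
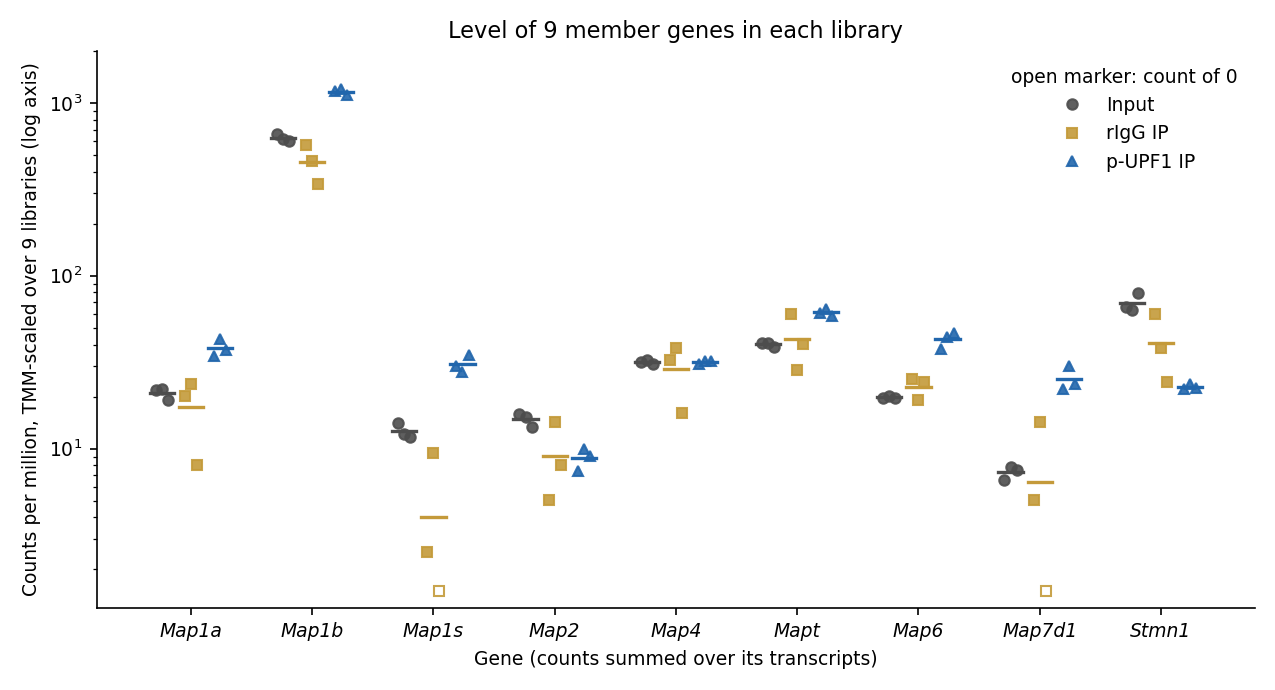
Each point is 1 library of Input (circles), rIgG IP (squares) or p-UPF1 IP (triangles), the horizontal bars are group means of 3 libraries, and the log axis gives CPM scaled by TMM over 9 libraries, with counts of 0 drawn as open symbols at the base. The p-UPF1 IP points lie above the Input points for Map1a, Map1b, Map1s, Mapt, Map6 and Map7d1, below them for Map2 and Stmn1, and among them for Map4.

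Of the 9 members with enough counts to test, 6 were higher in the p-UPF1 IP than in Input and 2 were lower at an adjusted p under 0.05. Over all 16919 genes tested, 26.3% were higher and 35.7% lower. With a log2 fold change above 1 as a further threshold, 3 members were enriched (Map7d1, Map1s and Map6) and 1 was depleted (Stmn1), against 17.3% enriched and 26.5% depleted of all genes. The members' median log2 fold change was 0.83, and that of all genes tested was -0.42. A stricter filter on low counts (filterByExpr) kept 12178 genes, of which 4400 were higher, 4987 lower and 2796 enriched. The median of those genes was -0.11 and that of the members 0.86. Under library totals alone in place of TMM the median of all genes moved to -0.01, so that each member's log2 fold change was larger by about the same amount. The split over all genes moved to 33.7% higher and 25.8% lower, with 24.3% enriched. In that setting 5 members were enriched, since Map1a reached 1.24 and Map1b 1.27, and only 1 was lower.

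The MAP1 proteins are made as long precursors that are cleaved into a heavy and a light chain. All 3 family members were higher in the p-UPF1 IP. Map1b (ENSMUSG00000052727.6, GRCm38 chr13:99421446-99516540, minus strand), the MAP1 of growing axons, had 14537, 13213 and 14540 counts in Input, 226, 97 and 42 in the rIgG IP and 6594, 8252 and 7304 in the p-UPF1 IP. Its level was 628 ± 28.0 CPM in Input and 1162 ± 54.4 CPM in the p-UPF1 IP (SD, n = 3), and the lowest p-UPF1 IP library lay far above the highest Input library. The log2 fold change was 0.86 with a standard error (SE) of 0.07, a 1.82-fold difference (edgeR adjusted p = 2.83e-06).

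Map1a (ENSMUSG00000027254.13, chr2:121289600-121310832, plus strand), the MAP1 of mature neurons, had far fewer counts at 483, 474 and 459 in Input, 8, 5 and 1 in the rIgG IP and 194, 292 and 245 in the p-UPF1 IP. The level was 21.1 ± 1.71 CPM in Input and 38.1 ± 4.26 CPM in the p-UPF1 IP, with no overlap, and its log2 fold change of 0.83 (SE 0.10, adjusted p = 3.11e-05) lay within 1 SE of that of Map1b. Map1s (ENSMUSG00000019261.3, chr8:70905932-70917529, plus strand), the short and widely expressed member of the family, had 309, 259 and 280 counts in Input, 1, 2 and 0 in the rIgG IP and 169, 189 and 231 in the p-UPF1 IP. Its mean rose from 12.6 ± 1.25 CPM in Input to 30.9 ± 3.65 CPM, which was 2.40-fold (log2 1.27, SE 0.11, adjusted p = 3.04e-06).

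MAP2, tau and MAP4 form another family that shares microtubule-binding repeats. Here the family split 3 ways in the p-UPF1 IP over Input. Mapt (ENSMUSG00000018411.17, chr11:104231390-104332090, plus strand), which encodes tau, had 902, 871 and 935 counts in Input, 24, 6 and 5 in the rIgG IP and 344, 439 and 386 in the p-UPF1 IP. Its level was higher by 1.5-fold, from 40.2 ± 1.12 to 61.3 ± 3.04 CPM (log2 0.58, SE 0.07, adjusted p = 3.93e-05). Map4 (ENSMUSG00000032479.15, chr9:109931460-110083955, plus strand), the family member of non-neuronal cells, had 701, 694 and 741 counts in Input, 13, 8 and 2 in the rIgG IP and 173, 220 and 212 in the p-UPF1 IP. Its levels overlapped at 31.7 ± 0.84 CPM in Input and 31.7 ± 0.79 CPM in the p-UPF1 IP, with a log2 fold change of -0.03 (SE 0.07, adjusted p = 0.737). The sign of Map4 depends on the scaling, since library totals gave 0.38 (adjusted p = 0.00328).

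Map2 (ENSMUSG00000015222.17, chr1:66175273-66442583, plus strand), the MAP of dendrites, was the only one of the 3 to fall. It had 348, 327 and 320 counts in Input, 2, 3 and 1 in the rIgG IP and 42, 68 and 60 in the p-UPF1 IP. The mean was 14.8 ± 1.31 CPM in Input and 8.83 ± 1.26 CPM in the p-UPF1 IP, with every p-UPF1 IP library below every Input library. The log2 fold change was -0.76 (SE 0.12, adjusted p = 0.000267), and with library totals it was -0.36 (adjusted p = 0.0555). In the rIgG IP over Input, Map2 stood at log2 -0.85 (SE 0.48, edgeR adjusted p = 0.546), from few counts and without a call. The fall is thus not shown to be particular to the p-UPF1 IP.

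Map7d1 and Map6 encode stabilising proteins of other families, and both were enriched. MAP7 family proteins help recruit kinesin motors to microtubules. Map7d1 (ENSMUSG00000028849.17, chr4:126232167-126256343, minus strand) had 146, 167 and 180 counts in Input, 2, 3 and 0 in the rIgG IP and 125, 206 and 157 in the p-UPF1 IP. From 7.31 ± 0.62 CPM in Input it reached 25.4 ± 4.24 CPM, a 3.41-fold difference (log2 1.77, SE 0.12, adjusted p = 6.40e-07). MAP6 is the protein that keeps microtubules from falling apart in the cold. Map6 (ENSMUSG00000055407.14, chr7:99267447-99337137, plus strand) had 433, 429 and 469 counts in Input, 10, 4 and 3 in the rIgG IP and 212, 301 and 309 in the p-UPF1 IP, and was 2.13-fold higher at 42.8 ± 4.61 CPM against 19.8 ± 0.31 CPM (log2 1.09, SE 0.08, adjusted p = 1.48e-06). Its log2 fold change stayed above 1 in every alternative run, with 1.01 as the lowest value.

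Stmn1 (ENSMUSG00000028832.11, chr4:134468320-134473843, plus strand) encodes stathmin 1, which binds tubulin dimers and promotes the shrinking of microtubules. It was the only depleted member. Input held 1445, 1348 and 1919 counts, the rIgG IP 24, 8 and 3 and the p-UPF1 IP 125, 161 and 149. The level was 69.5 ± 9.05 CPM in Input and 22.8 ± 0.73 CPM in the p-UPF1 IP, a 3.11-fold difference (log2 -1.64, SE 0.11, adjusted p = 4.24e-07) that stayed below -1 in every alternative run. Of the 1956 distinct 35-nt windows in its transcripts, 381 also occur in Gm11223, but that gene had 0, 1 and 0 counts in Input and 0 in each other library.

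Dcx (ENSMUSG00000031285.14, chrX:143855842-143933311, minus strand), which encodes doublecortin, had few counts in these cells. There were 4, 2 and 3 counts in Input and 0 in all 6 IP libraries, which was too few for a test. Its Input level lay below the level of 3 counts in any p-UPF1 IP library, so that a difference was not detectable at this depth.

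The rIgG IP shows what the beads and a non-specific antibody recover, and its depth limited the comparison with the p-UPF1 IP. The 10 members together had between 57 and 310 counts in an rIgG IP library. Over the rIgG IP, 5 of the 9 members were enriched in the p-UPF1 IP (Map1s, Map7d1, Map1b, Map1a and Map6) and 1 was lower (Stmn1). Of the 12033 genes tested, 17.5% were enriched, 17.9% were higher, 5.59% were lower and 5.34% were depleted. Their median log2 fold change was 0.89, and that of the members was 1.12. With filterByExpr, 3 members were enriched, beside 1427 of the 7774 genes kept. The medians were then 0.76 for the members and 0.52 for all genes.

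Map1s had a log2 fold change of 3.13 (SE 0.59, adjusted p = 0.000288), but against only 3 counts in all rIgG IP libraries. By library totals the ratio was 8.47, with an exact 95% interval of 2.88 to 41.2 that covers counting error only. That of Map7d1 was 2.12 (SE 0.55, adjusted p = 0.00636), with 5 rIgG IP counts and a ratio of 4.21 (1.79 to 13.0). The best-counted member, Map1b, was 2.90-fold higher (log2 1.54, SE 0.22, adjusted p = 8.63e-06).

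The calls of Map1a (log2 1.23, SE 0.36, adjusted p = 0.0143) and Map6 (log2 1.12, SE 0.33, adjusted p = 0.0145) were less firm. Without rIgG IP replicate 1, the deepest of the 3, the adjusted p was 0.0905 for Map1a, 0.0739 for Map6 and 0.118 for Map7d1, and only Map1b and Map1s remained enriched. Map1a also lost its call without rIgG IP replicate 3 (adjusted p = 0.0626), and Map6 without rIgG IP replicate 2 (adjusted p = 0.101). With the replicate number as a block, the adjusted p was 0.0775 for Map1a and 0.112 for Map6, and 3 members stayed enriched.

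Mapt, Map2 and Map4 did not pass the test over the rIgG IP. Their log2 fold changes were 0.60 (SE 0.27, adjusted p = 0.108), 0.34 (SE 0.57, adjusted p = 0.688) and 0.25 (SE 0.31, adjusted p = 0.571), and the levels in the p-UPF1 IP and rIgG IP libraries overlapped for each. A wide interval goes with these values, such as a ratio by totals of 1.22 for Map2 with an exact 95% interval of 0.550 to 3.38. Stmn1 was lower than in the rIgG IP as well (log2 -0.82, SE 0.29, adjusted p = 0.0422; ratio by totals 0.536, 0.380 to 0.780), a call that ended without rIgG IP replicate 1 (log2 -0.30, adjusted p = 0.657) and with the replicate block (adjusted p = 0.369).

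Between the rIgG IP and Input, edgeR called 0 of the 9 members, against 0.584% of all genes higher and 0.313% lower. At an unadjusted p under 0.05 only Map1s passed (log2 -1.62, SE 0.64), and DESeq2 also called 0. The comparisons over Input and over the rIgG IP share the p-UPF1 IP libraries and are not independent of each other.

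**Figure D2:**
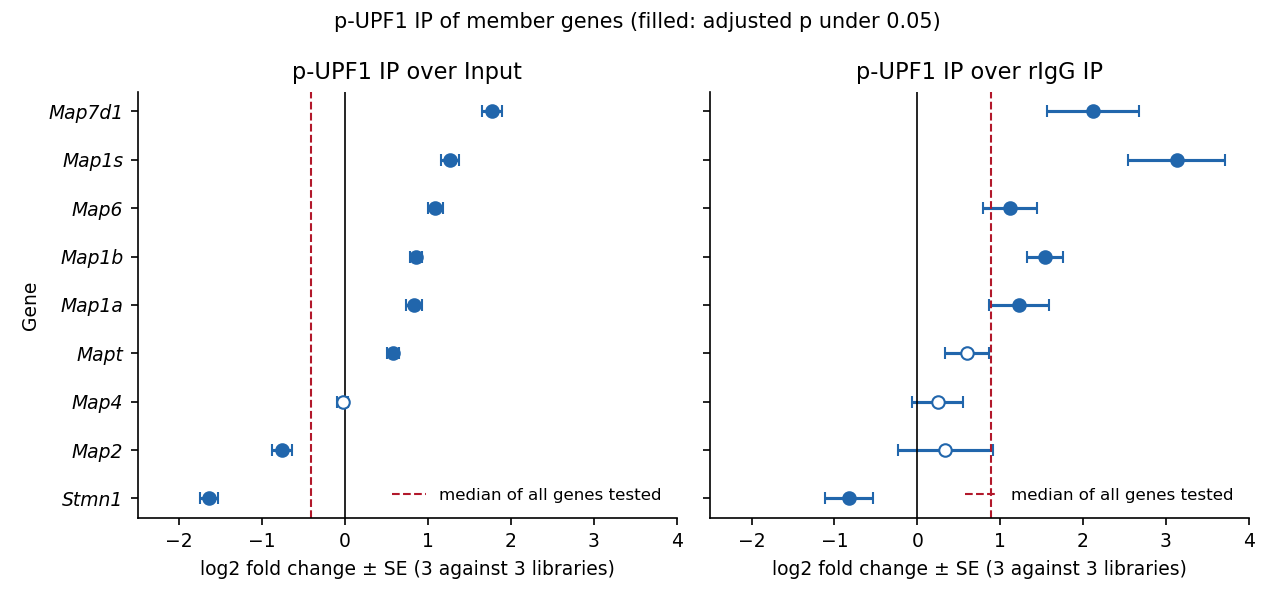
Points are log2 fold changes of the p-UPF1 IP over Input (left) and over the rIgG IP (right) with bars of 1 SE from edgeR fits of 3 against 3 libraries, filled where the adjusted p is under 0.05, and the dashed lines mark the median of all genes tested. Members spread from -1.64 for Stmn1 to 1.77 for Map7d1 on the left, where the bars are short, and the bars are several times longer on the right, where few rIgG IP counts stand behind each value.

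On the genome, Map1a overlaps Ppip5k1 on the opposite strand (290 summed Input counts), and Map4 holds the processed pseudogene Gm4734 on its own strand (62 summed Input counts). Whether the counting used strand was not given in the sources used here, so that fragments from such overlaps cannot be told apart.

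A gene's sum hides which transcripts supplied the fragments. Of the 100 member transcripts, 53 entered the test against Input. Of these, 5 were enriched and 6 depleted, against 8.55% and 16.2% of all 42616 transcripts tested, and 8 were higher with or without that threshold, against 9.44%. The counts per transcript are estimates that share short fragments between isoforms. A biological coefficient of variation of 96.7% for transcripts, against 12.4% for genes, measures how much less steady they were. With the replicate block, 1 member transcript was enriched and 2 were depleted. Over all 42616 transcripts the block left 1075 enriched and 1459 depleted, from 3644 and 6908 without it. For each enriched or depleted transcript, the share of its 35-nt windows found in no other transcript is given. The shortest read the authors kept was 35 nt. Of the 11 called transcripts, 5 had under 5% of such windows.

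Map1b-201 (ENSMUST00000064762.5, chr13:99421446-99516540, 7 exons, 11808 nt) is the coding transcript of full length, and 81.0% of its windows are its own. It held 13234, 11804 and 13292 counts in Input against 5619, 7230 and 6283 in the p-UPF1 IP, and was higher by a log2 fold change of 0.49 (SE 0.07, adjusted p = 0.00514, and 0.0510 with the replicate block). Its stop codon is followed by a 3' UTR of 4360 nt, the longest among the most-counted transcripts of the 9 members tested.

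The study's RT-qPCR primers for Map1b lie in coding exons 5 and 6 of this transcript (chr13:99429305-99429324 and chr13:99427365-99427384) and bound an amplicon of 206 nt. Only Map1b-201 of the 6 Map1b transcripts holds them, which is why they are shown.

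Map1b sense primer: aaagaccaccaccactcctg

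Map1b antisense primer: tgttgctgtggttgggaata

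The enriched Map1b transcript was another one, Map1b-206 (ENSMUST00000224702.1, chr13:99433947-99444467, 3 exons, 2150 nt), annotated as a processed transcript without a reading frame. It had 743, 1054 and 1219 counts in Input against 970, 1018 and 1017 in the p-UPF1 IP, which took its share of the Map1b counts from 5.11 to 8.38% up to 12.3 to 14.7%. The log2 fold change was 1.5 (SE 0.18, adjusted p = 0.00297, and 0.0398 with the replicate block, but 0.226 with all 9 libraries in one fit). Only 7.94% of its windows are its own. The short non-coding Map1b-202 held 509, 285 and 0 Input counts and 0 in every IP library, and Map1b-206 was highest in the Input library where Map1b-202 was at 0. The letters at which the 2 differ are shown, with the shared downstream exon in capitals.

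Map1b-206 junction: gccgtcagcactgagGTGCGTTTGATGATC

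Map1b-202 junction: gtttcatcatccaagGTGCGTTTGATGATC

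The upper junction, over the intron chr13:99441775-99444213, is also spliced in Map1b-201, Map1b-203 and Map1b-205, and the lower one, over chr13:99441775-99443727, in Map1b-202 alone. A read across the upper junction therefore tells Map1b-206 from Map1b-202 but not from Map1b-201. Map1b-204, with a retained intron, had 28, 50 and 11 counts in Input against 0 in the p-UPF1 IP, at least 3.57-fold lower against a floor of 3 counts per library (adjusted p = 0.0378, and 0.248 with the block). That call ended when any single library was left out, with adjusted p-values of 0.0539 to 0.111. Of the windows of Map1b-204, 78.6% are its own.

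For Map7d1, the enrichment of the gene came with a change in which coding transcript the fragments were assigned to. Input counts lay on Map7d1-201 (76, 79 and 89) and Map7d1-204 (68, 85 and 91), with 0 in each Input library for Map7d1-203 (ENSMUST00000122129.7, chr4:126232167-126256277, 18 exons, 3249 nt). In the p-UPF1 IP, Map7d1-203 had 53, 100 and 78 counts, at least 71.1-fold more than 3 counts per Input library would give (adjusted p = 0.00130, and 0.0612 with the block), while Map7d1-201 had 0, 0 and 13. Map7d1-203 shares every one of its 35-nt windows with another transcript, and all 3 coding transcripts named here end in the same 3' UTR of 589 nt. The exon junction that is in Map7d1-203 and not in Map7d1-201 is shown, with the downstream exon in capitals.

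Map7d1-203 junction: acggcagggaccaggCCGTGCCAGTGTGCC

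It spans the intron chr4:126237060-126237155 within the coding sequence and is shared with Map7d1-202, which had 0, 2 and 0 counts in Input against 51, 42 and 0 in the p-UPF1 IP. Map7d1-205 (ENSMUST00000131579.1, chr4:126233620-126234776, 577 nt), annotated with a retained intron, rose too, from 1, 1 and 0 counts to 15, 32 and 22 (log2 6.21, SE 0.89, adjusted p = 0.00547, and 0.0671 with the block), and 23.9% of its windows are its own.

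For Map1s, a coding transcript was enriched while the transcript with the most Input counts was not called. Input fragments fell mostly on Map1s-211 (175, 173 and 148 counts), annotated with retained introns, and in the p-UPF1 IP it had 24, 15 and 2 (log2 -2.04, SE 0.82, adjusted p = 0.120, and 0.0461 without p-UPF1 IP replicate 3). Coding Map1s-201 (ENSMUST00000019405.3, chr8:70905932-70917527, 7 exons, 3314 nt) went from 5, 0 and 0 counts to 37, 111 and 158 (log2 7.22, SE 1.35, adjusted p = 0.0135, and 0.107 with the block), and 1.52% of its windows are its own. The spliced and the retained form differ at the intron chr8:70911050-70911845 of 796 nt, shown here with the letters after the exon end in capitals.

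Map1s-201 spliced: ccagcattgtgaaagGGCAGCGGAGCCTGC

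Map1s-211 retained: ccagcattgtgaaagGTGACCTGCCCCACT

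Another intron-retaining transcript, Map1s-204 (ENSMUST00000212143.1, chr8:70911818-70917526, 4396 nt), was enriched, with 87, 61 and 90 counts in Input against 104, 56 and 65 in the p-UPF1 IP (log2 1.46, SE 0.37, adjusted p = 0.0362, and 0.0891 with the block). Of the windows of Map1s-204, 30.9% are its own. Its retained intron, chr8:70914995-70916350 of 1356 nt, is spliced in both Map1s-201 and Map1s-211.

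Map1s-204 retained: caaggctctcctccgGTGAGTCCCTTTAAT

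Map1s-201 spliced there: caaggctctcctccgGACCCAGTGGCCGCC

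Without any one Input library the call of Map1s-204 ended, with adjusted p-values of 0.0871 to 0.0939. Map1s-211 and Map1s-204, both intron-retaining, thus differed in their calls, and neither change in share was tested on its own.

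**Figure D3:**
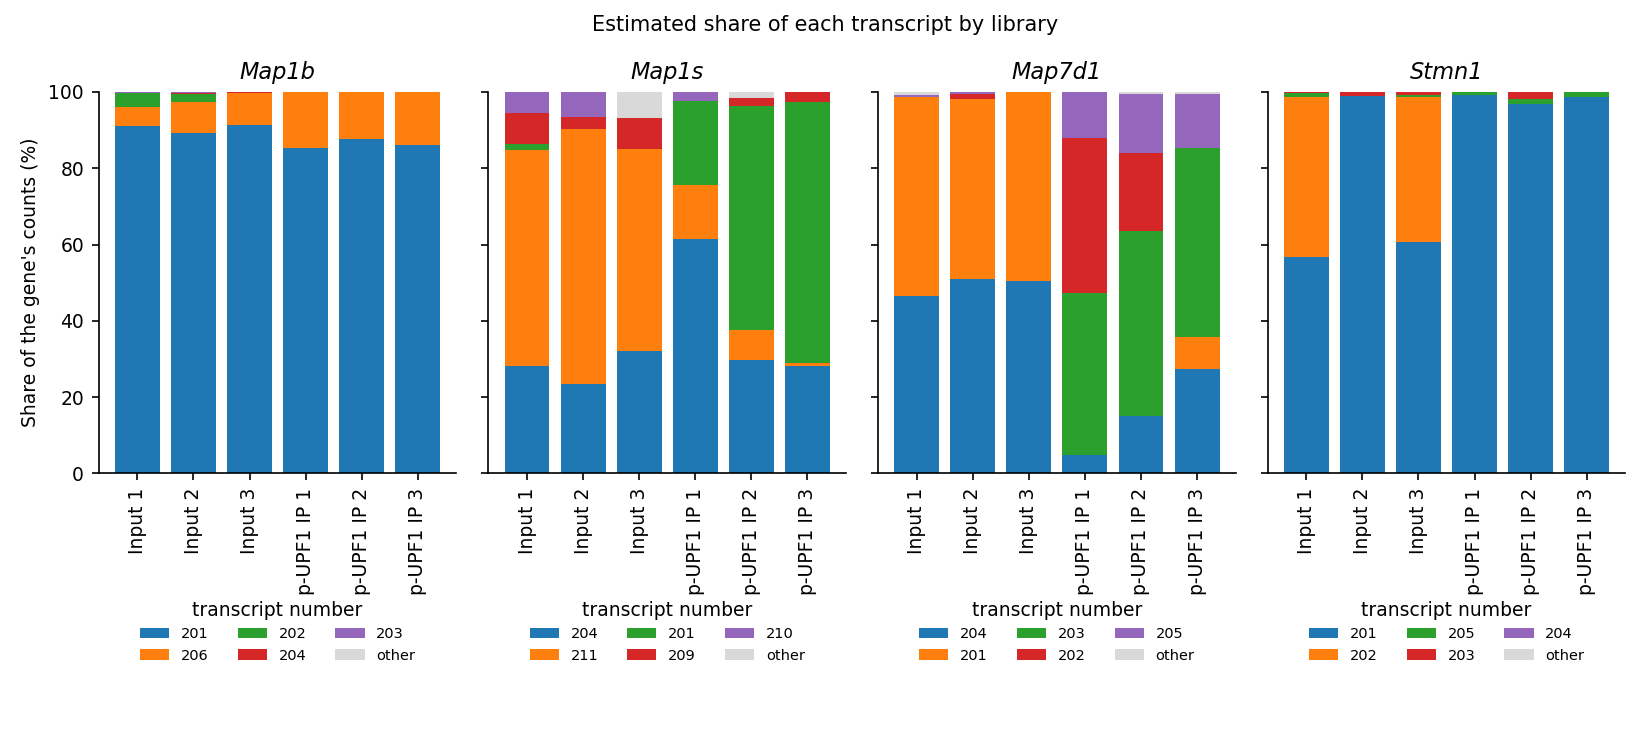
Bars give each transcript's estimated share (%) of the counts of Map1b, Map1s, Map7d1 and Stmn1 in 3 Input and 3 p-UPF1 IP libraries, with transcripts named by the number after the gene symbol. Map1b-201 stays at 85.2% or more in every bar, Map1s-201 and Map7d1-203 appear almost only in the p-UPF1 IP, and Stmn1-202 is present in Input libraries 1 and 3 but not in Input library 2.

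Depleted transcripts of Map2 and Map4 were short or partial forms with low counts. Map2-217 had 75, 64 and 71 counts in Input against 0 in the p-UPF1 IP, at least 8.23-fold lower (adjusted p = 0.00428), and Map2-219 had 8, 19 and 14 and then 0, at least 1.61-fold lower (adjusted p = 0.0404). For Map4 these were Map4-213, with 22, 64 and 43 Input counts and 0 in the p-UPF1 IP (at least 5.08-fold lower, adjusted p = 0.0184), and Map4-207, with 10, 10 and 12 and then 0 (at least 1.25-fold lower, adjusted p = 0.0360). With the block, the adjusted p-values of these 4 were 0.150 to 0.304. Their own windows made up 1.51% of Map2-217, 4.53% of Map2-219, 0% of Map4-213 and 23.0% of Map4-207. Counts of these 4 transcripts therefore rest largely on windows shared with other transcripts. For Map4-207, 30.9% of the windows also occur in other genes, so that its counts may not all come from Map4. Leaving out any single library ended the call of Map2-219 (adjusted p-values of 0.0507 to 0.107), leaving out any Input library ended that of Map4-207 (0.0906 to 0.103), and leaving out Input replicate 2 or 3 ended that of Map4-213 (0.0620 and 0.0712). The most-counted transcripts of both genes were not called. Map2-201 had 0, 97 and 154 counts in Input against 0, 54 and 27 in the p-UPF1 IP, and the libraries in which it had 0 were those where Map2-202 had 124 (Input replicate 1) and 26 counts (p-UPF1 IP replicate 1). Map4-205 had a log2 fold change of -0.75 (SE 0.26, adjusted p = 0.0873, and 0.0265 without p-UPF1 IP replicate 2).

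Stmn1-201 (ENSMUST00000030636.10, chr4:134468320-134473843, 5 exons, 1060 nt) was the only transcript of its gene called depleted, and 21.9% of its windows are its own. It had 821, 1334 and 1166 counts in Input against 124, 156 and 147 in the p-UPF1 IP (log2 -1.47, SE 0.20, adjusted p = 0.00420, and 0.0337 with the block). Stmn1-202 had 606, 0 and 730 counts in Input and 0 in all IP libraries, at least 51.2-fold lower in the p-UPF1 IP but not called (edgeR adjusted p = 0.132). Stmn1-201 was highest in Input replicate 2, where Stmn1-202 was at 0. The part of each in the depletion of the gene cannot be told apart.

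Of the most-counted transcripts of the other members, that of Mapt was not called. Mapt-204 (ENSMUST00000106992.9, 3' UTR of 3903 nt) had 813, 724 and 783 counts in Input against 258, 342 and 311 in the p-UPF1 IP, with a log2 fold change of 0.14 (SE 0.09, adjusted p = 0.275). Map6-204 (ENSMUST00000127492.1) was higher by 0.80 (SE 0.13, adjusted p = 0.00807, and 0.0638 with the block), and Map1a-202 (ENSMUST00000110639.7) by 0.74 (SE 0.15, adjusted p = 0.0179, 0.108 with the block and 0.0516 without Input replicate 3).

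Over the rIgG IP, 36 member transcripts could be tested and 3 were enriched, against 12.7% of all 23034. They were Map1a-202 (log2 5.27, adjusted p = 0.0263), Map1b-201 (log2 1.86, adjusted p = 0.0188) and Map7d1-203 (log2 8.34, adjusted p = 0.0290). Leaving out any one p-UPF1 IP library left 0 of them enriched. Over all transcripts the same fits left 2 of 20267, 1 of 19501 and 2 of 19535 enriched, against 2916 with every library. Of the 36, edgeR called 0 depleted, against 1.34% of all transcripts, DESeq2 called 1, and 1 was lower at an unadjusted p under 0.05.

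Exon junctions downstream of the stop codon, a classical mark of NMD targets, were rare among the members. Of 49 transcripts with an annotated stop codon, 47 have no junction after it, and the other 2, both of Map1s and annotated as NMD transcripts, have one more than 50 nt downstream. Of these, 1 could be tested, Map1s-205, which had 0, 0 and 19 counts in Input against 0 in the p-UPF1 IP (adjusted p = 0.324). Some members had long 3' UTRs, and the lengths stood in no clear order with the fold changes. Map1b (4360 nt), Mapt (3903 nt) and Map6 (2680 nt) were higher and Map2 (3574 nt) lower, while Map7d1 (log2 1.77) has 589 nt. Over the 8 members whose most-counted transcript has a 3' UTR, Spearman's rho of its length with the log2 fold change was 0.12, a description of few points. Across 8984 genes whose counts averaged 20 or more, rho was 0.18. Map1b, Mapt, Map6 and Map2 lay in the quintile of those genes with the longest 3' UTRs (2570 nt or more), whose median log2 fold change was 0.01.

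GC content ordered the members more closely. Across 10580 genes whose counts averaged 20 or more, the median log2 fold change of the p-UPF1 IP over Input went from -0.97 in the quintile of genes with the lowest GC content of their most-counted transcript to 0.73 in the highest (rho = 0.37 across genes). Among the 9 members rho was 0.75, again with no test. Map2, at 40.9% GC, lay in the lowest quintile and was lower. Map1s, Map7d1, Map1a and Map6, at 56.0 to 62.1% GC, lay in the highest quintile and were higher. Map1b and Stmn1 stood away from that order. Map1b, at 47.6% GC, was in the second quintile, whose median was -0.51, yet had 0.86. Stmn1, at 51.1%, was in the third quintile with a median of -0.08, yet had -1.64. By transcript length, Stmn1 lay in the shortest quintile, whose median was -1.19. Length did not order the members, with rho of -0.08 among them and 0.22 across genes. Map1a, Map1b, Map2, Map4, Mapt and Map6 lay in the longest quintile (median 0.03), with log2 fold changes from -0.76 to 1.09. The part of GC content and length in these differences was not tested.

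**Figure D4:**
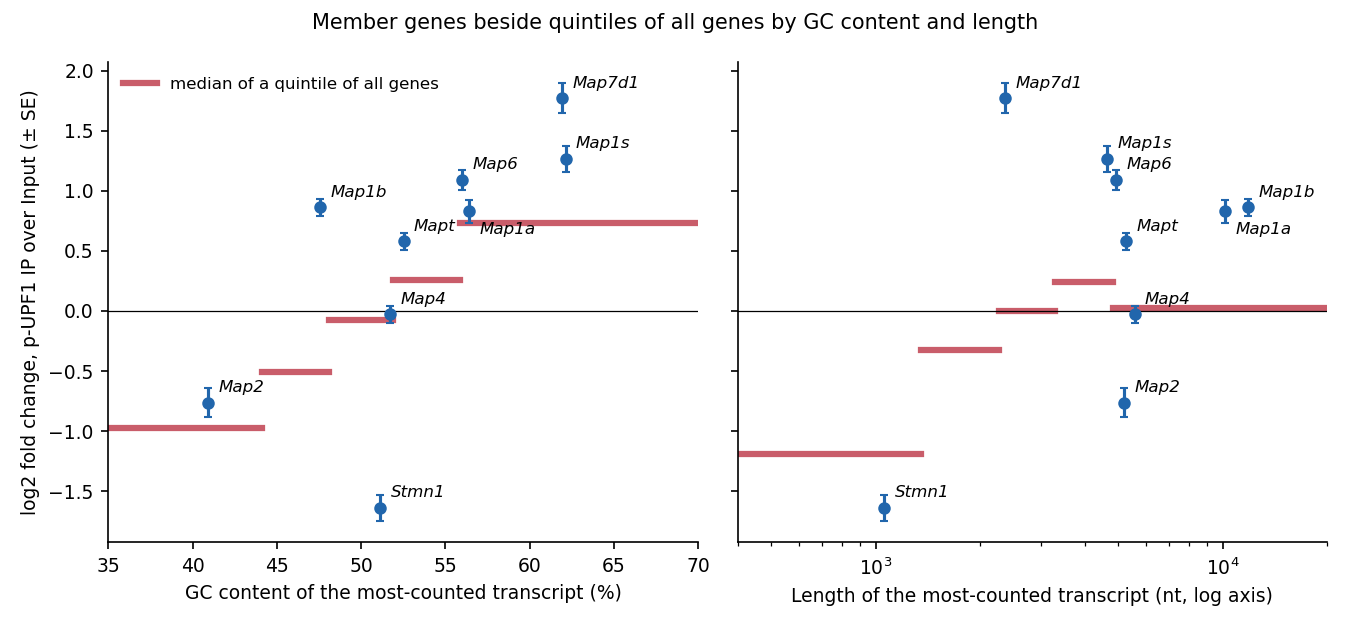
Points are the 9 members' log2 fold changes (± SE) of the p-UPF1 IP over Input against the GC content (left, %) and length (right, nt, log axis) of their most-counted transcript, and thick lines are medians of quintiles of 10580 genes. Map1b lies above and Stmn1 below the line of its GC quintile, and Map2 lies below the line of its length quintile.

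Other genes that act on microtubules give the setting for these members. Of 63 such genes listed by symbol, 59 entered the test of the p-UPF1 IP over Input, where 17 were higher and 23 lower, with 9 enriched and 15 depleted and a median log2 fold change of -0.02. These shares lay near those of all genes, 26.3% higher, 35.7% lower, 17.3% enriched and 26.5% depleted. The balance turned with library totals, to 27 higher and 16 lower, with 12 enriched and 8 depleted, beside 33.7% higher and 25.8% lower of all genes. The stathmins moved in both directions, under either scaling. Stmn2, a growth-associated relative of stathmin 1, had 1313, 1214 and 1413 counts in Input against 54, 79 and 88 in the p-UPF1 IP (log2 -2.37, SE 0.10, adjusted p = 1.98e-08). Stmn3 was depleted as well (log2 -1.65). Stmn4, in contrast, went from 244, 281 and 311 counts to 487, 568 and 572 (log2 2.76, SE 0.09, adjusted p = 2.57e-09).

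Map1lc3a, Map1lc3b and their autophagy relative Gabarapl2, which are genes separate from Map1a, Map1b and Map1s, were all lower. Gabarapl2 (log2 -1.81) and Map1lc3a (-1.03) were past the threshold of depletion, and Map1lc3b was at -0.52. With library totals only Gabarapl2 kept a call (-1.41), while Map1lc3a was at -0.62 (edgeR adjusted p = 0.0707) and Map1lc3b at -0.11 (adjusted p = 0.354). Of 6 microtubule-severing enzymes, 4 were depleted, among them the katanin subunit Katna1 (log2 -1.89, SE 0.20, adjusted p = 1.50e-05). With library totals the same class had 4 lower, 2 of them depleted. Of 7 minus-end and EML proteins, 4 were higher and 0 lower, and 6 were higher with library totals. Mtus2 (log2 2.42, SE 0.09) and the plus-end linker Clip2 (log2 2.36, SE 0.09) were enriched, and Tppp3 (log2 -2.09, SE 0.12), a tubulin polymerisation promoter, was depleted, under either scaling.

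Of the kinases that phosphorylate tau and MAP2, Mark3 (0.34) and Mark4 (0.64) were higher, Mark2 (-0.34) was lower and Gsk3b (-0.11) and Cdk5 (-0.16) were not called. With library totals the sign of Mark2 turned, to 0.07 (edgeR adjusted p = 0.664), and Gsk3b was higher by 0.30 (adjusted p = 0.0121).

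Over the rIgG IP, 56 of the 63 could be tested, with 10 higher and 3 lower, near the 17.9% and 5.59% of all genes, and the list's median log2 difference was 0.48, below the 0.89 of all genes.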

How the data were processed

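RIP-seq libraries of N2A cells were analysed: 3 of Input, 3 of the rIgG IP and 3 of the p-UPF1 IP, grouped by their titles. The authors estimated counts per transcript with Salmon 0.13.1 on GRCm38 and deposited these estimated counts as whole numbers, without scaling. Every column was matched to a library by name.

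Counts were summed per gene symbol, and genes and transcripts reaching a summed count of 10 were tested with edgeR 4.0.16 in R 4.3.3 (TMM, quasi-likelihood test, Benjamini-Hochberg over all features tested), using the 6 libraries of the groups compared. Higher or lower means an adjusted p under 0.05, and enriched or depleted also a log2 fold change above 1 or below -1. A standard error is the log2 fold change divided by the square root of F. The depth of each group is given with the results, and a floor of 3 counts bounds folds against 0. Coordinates, stop codons and 35-nt windows came from GENCODE M21. The fitting code was run on simulated counts in which only a small set of features changed, in either direction. Far more genes were called in these data, so that run did not test the choice of scaling.

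Named were all 10 members, their most-counted transcripts and the transcripts called (at most 3 per gene), and of 63 other microtubule genes the 3 highest and 3 lowest called ones with a mean count of at least 50. Other transcripts and genes were named after their values were seen. The members, the lists and these rules were chosen with earlier results of these data known. Alternatives were RLE factors, library totals, DESeq2 1.42.0, filterByExpr, no filter, a joint fit of the 9 libraries, a block for the replicate number, and leaving out each library. RNA-seq of the same study is not analysed here.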

Additional observations from a re-analysis of the deposited data

How the results depend on the processing

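Over Input, the 6 members called higher were higher and the log2 fold changes of all 9 kept their sign in every alternative, apart from Map4, which turned to 0.38 with library totals and ranged from -0.025 to 0.024 without single libraries, the highest without p-UPF1 IP replicate 1. Library totals also moved the counts of members lower from 2 to 1 and enriched from 3 to 5. Leaving out single libraries left 6 higher, 2 lower, 3 enriched and 1 depleted. Over the rIgG IP, the 5 members higher and enriched were 3 with RLE factors, DESeq2, filterByExpr or the replicate block, and 2 to 5 without single libraries. The 1 member lower was 0 with all 9 libraries in one fit or the replicate block, and 0 to 1 without single libraries. The 0 depleted was 1 with RLE factors, DESeq2 or filterByExpr, and 0 to 1 without single libraries. The sign turned for Map2 with filterByExpr (-0.0095) and without rIgG IP replicate 1 (-0.20, in a range up to 0.76 without single libraries), and for Map4 with RLE factors (-0.029), DESeq2 (-0.028) and filterByExpr (-0.11).

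By transcript over Input, the 5 enriched were 10 with library totals, 9 with DESeq2, 1 with the replicate block and 4 to 7 without single libraries, and the 6 depleted were 3, 10, 2 and 3 to 6. Map2-201 turned to 0.56 with library totals, 0.52 without Input replicate 3 and 0.46 without p-UPF1 IP replicate 1 (lowest without single libraries, -1.08), and Map7d1-204 to 0.54 with library totals and 0.35 without p-UPF1 IP replicate 1 (lowest -0.63). Over the rIgG IP, the 3 enriched were 6 with filterByExpr or no filter and 0 to 4 without single libraries, and the 0 depleted was 1 with DESeq2 and 0 to 1 without single libraries. The 0 enriched came without a p-UPF1 IP library, where only 1 or 2 of all transcripts were enriched. In the rIgG IP over Input, where 0 of 42 member transcripts were called by edgeR and 7 were lower at an unadjusted p under 0.05, DESeq2 called 2 enriched and 1 depleted, filterByExpr gave 3 depleted, all 9 libraries in one fit gave 2, and single libraries left out gave 0 to 2. Of the 63 other microtubule genes, 13 (no filter) to 27 (library totals) were higher over Input and 16 (library totals) to 25 lower, against 17 and 23. Over the rIgG IP, 6 to 11 were higher and 1 to 5 lower, against 10 and 3, with 7 and 1 under the replicate block. The cause of these changes was not tested.

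Same-numbered libraries did not deviate together, with correlations of -0.03 to 0.05 across genes, so that the numbers were not taken to pair them. The replicate block changed no member's call over Input by gene (adjusted p of 0.794 for Map4). Depth limits the rIgG IP most, where 3 counts equal 6.32 to 38.0 CPM.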

Other observations

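Among microtubule genes outside the members, values in the p-UPF1 IP over Input differed between relatives. Of the collapsin response mediators, Dpysl2 was depleted (log2 -1.34), Dpysl3 was higher (0.73) and Dpysl5 was enriched (2.17). Of the doublecortin relatives, Dclk1 was depleted (-1.09) and Dclk2 was higher (0.53). With library totals Dpysl2 (-0.94) and Dclk1 (-0.68) were lower but no longer past the threshold of depletion, and Dpysl3 (1.14) was enriched.

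Of 14 plus-end tracking proteins, 2 were higher and 6 lower, against 26.3% and 35.7% of all genes, with Ckap5 (-1.21) and Slain1 (-1.55) depleted and Nav1 (0.66) higher. With library totals the balance turned to 5 higher and 4 lower, against 33.7% and 25.8% of all genes, and Ckap5 (-0.80) was no longer depleted. Of 7 spindle microtubule proteins, 2 were higher, among them Gtse1 (1.40), and 3 were lower, among them Nusap1 (-1.46). Library totals gave 3 higher and 2 lower, with Prc1 turning from -0.31 to 0.09 (edgeR adjusted p = 0.419). All are named after their values were seen, and differences between relatives were not tested.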
